A study of Rattus norvegicus with 6 samples.

Results

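The mRNA levels of 9 alpha- and beta-tubulin genes and of stathmin were followed in the rat sciatic nerve after crush injury. The genes were taken by symbol: Tuba1a, Tuba1b, Tuba1c, Tubb2a, Tubb2b, Tubb3, Tubb4a, Tubb5, Tubb6 and Stmn1. These 10 symbols matched 11 of the 30957 genes measured, because Tuba1c was listed at 2 loci. The Tuba1c entry on chromosome 2 (ENSRNOG00000015544) held 0 counts in every library, and the other 10 entries were among the 15195 genes with enough counts to be tested.

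Microtubules are polymers of alpha- and beta-tubulin, which come together as a heterodimer and are each encoded by several genes that differ mainly in their carboxy-terminal tails. In peripheral nerve, microtubules run along the axon as tracks for transport, give the Schwann cell its shape and carry its myelin mRNA and protein, and form the spindle of every dividing cell. Stathmin, the product of Stmn1, binds free tubulin dimers and favours microtubule disassembly.

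The animals were 1-month-old Sprague-Dawley rats without a transgene, with 2 rats in each of 3 groups and 1 library per rat, named a or b. In the D4 group and the D7 group, the left sciatic nerve had been crushed with forceps 4 or 7 days earlier. The control rats are named normal controls in the labels, and the methods of the study describe an operation in which the nerve was left unclamped. Each library holds all cells of the nerve segment, including Schwann cells, macrophages, fibroblasts and vessels, so a change in the number of cells of a type and a change in the RNA per cell cannot be told apart. The libraries held between 18727255 and 25350886 counts on mRNAs. The 8 myelinating Schwann cell markers summed to between 29670 and 44010 CPM (counts scaled to the normalized library size) in the control group, between 3261 and 3337 at D4 and between 6047 and 8905 at D7. The cell bodies of the axons lie outside the nerve, and the neuronal nuclear marker Rbfox3 had at most 1 count in any library. Other neuronal and axonal markers were present. The 9 such markers, Rbfox3 among them, summed to between 68.0 and 70.4 CPM in the control group. Their sums were between 17.6 and 22.2 CPM at D4 and between 233.6 and 347 CPM at D7.

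**Figure D1:**
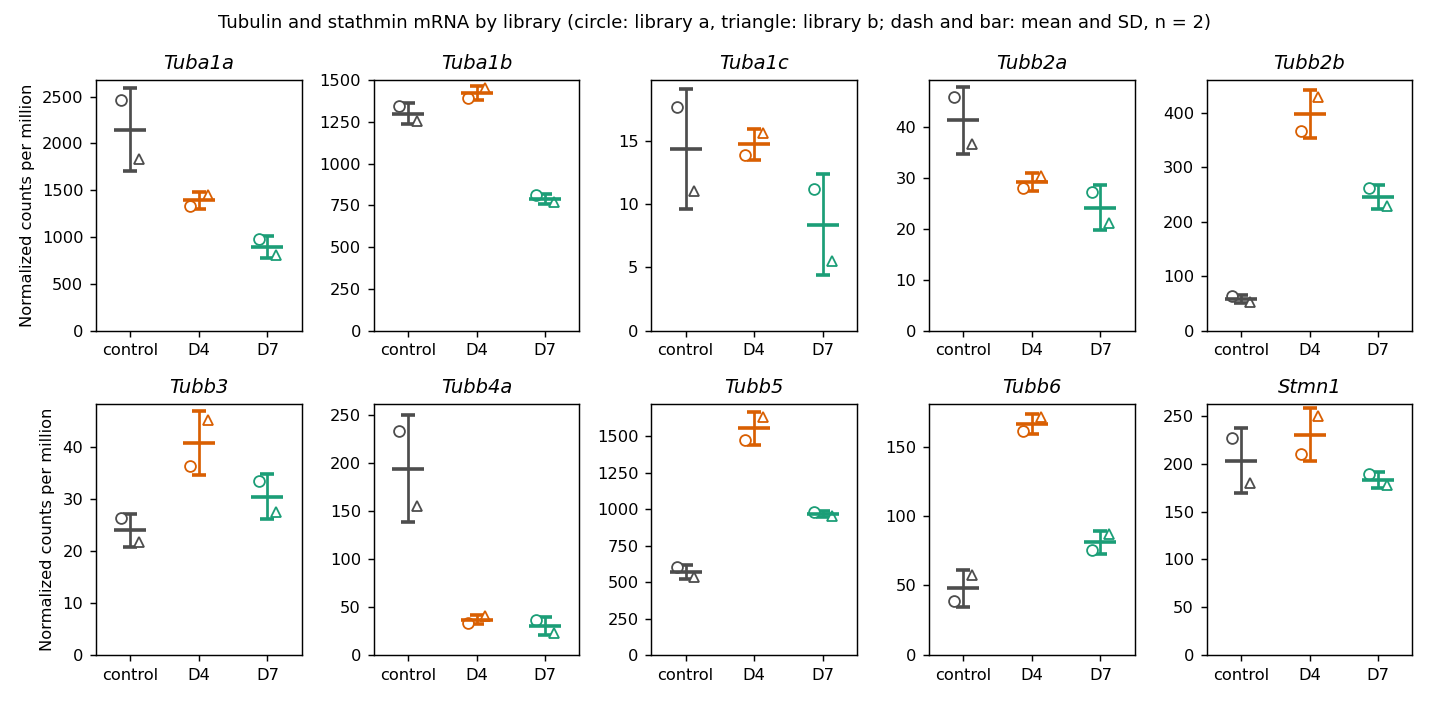
Each panel shows a gene, with CPM on a linear axis from 0 and the 3 groups along the bottom. Circles and triangles are libraries a and b, and the dash and bar are the mean and SD (n = 2). Tubb2b, Tubb5 and Tubb6 were highest at D4, Tubb4a was highest in the control group, and Stmn1 overlapped between the control group and each injured group.

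By 4 days after the injury the beta-tubulin genes had moved in opposite directions. Tubb2b, Tubb6 and Tubb5 were upregulated 6.90-fold, 3.46-fold and 2.73-fold, Tubb4a was downregulated 5.28-fold, and the other 6 genes, Stmn1 among them, stayed below the 2-fold threshold. A gene was called differentially expressed (DEG) when its adjusted p was below 0.05 and its fold change was at least 2. By this rule 4 of the 10 tested genes were DEGs between control and D4, 3 of them upregulated, against 21.9% of all 15195 genes (11.2% upregulated and 10.7% downregulated). The D4 libraries did not overlap the control libraries for 8 of the 10 genes, which was also true of 76.2% of all genes. By the p threshold alone, 4 genes were higher and 2 were lower at D4, beside 21.6% and 22.6% of all genes, together 44.2%. The median log2 fold change of the 10 genes was 0.16, beside -0.04 over all genes tested.

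Among the upregulated genes, Tubb2b (ENSRNOG00000017445, Rnor_6.0 chr17:31441630-31482759) encodes a beta-tubulin known from the developing nervous system, where its loss disturbs neuronal migration. Libraries a and b of the control group had 62.7 and 52.5 CPM of it, followed by 366.8 and 428.2 CPM at D4, and 260.8 and 229.3 CPM at D7. The lowest injured library was thus well above the higher control library, and the 3 groups did not overlap. At D4 the log2 fold change was 2.79 ± 0.15 (SE), with an adjusted p of 0.000138 by the edgeR quasi-likelihood test with Benjamini-Hochberg adjustment.

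Tubb5 (ENSRNOG00000061216, Rnor_6.0 chr20:3422461-3426371) encodes the widely expressed class I beta-tubulin, which is prominent in dividing cells. It was the most abundant beta-tubulin of the nerve in every group. Its level was 603.4 and 534.6 CPM in the control group, 1477 and 1633 CPM at D4, and 981.8 and 955.5 CPM at D7. The D4 libraries stood highest and the control libraries lowest, with no overlap. At D4 this was a log2 fold change of 1.45 ± 0.11 (SE; edgeR quasi-likelihood test, Benjamini-Hochberg adjusted p = 0.000344).

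Tubb6 (ENSRNOG00000018371, Rnor_6.0 chr18:63130542-63140181) encodes the class V beta-tubulin, which is found in many tissues in small amounts. It was at 38.6 and 57.5 CPM in the control group, 161.1 and 171.5 CPM at D4, and 75.2 and 87.0 CPM at D7. The control libraries differed more from each other than the D4 libraries did, but both lay below all injured libraries. The log2 fold change at D4 was 1.79 ± 0.20 (SE; edgeR quasi-likelihood test, Benjamini-Hochberg adjusted p = 0.00105).

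The downregulated gene, Tubb4a (ENSRNOG00000047505, Rnor_6.0 chr9:9961021-9968486), encodes the class IVa beta-tubulin of neurons and of myelin-forming oligodendrocytes in the brain. Its level was 233.9 and 155.0 CPM in the control group, 33.5 and 40.3 CPM at D4, and 36.6 and 23.3 CPM at D7. Both control libraries stood far above the 4 injured libraries. The log2 fold change at D4 was -2.40 ± 0.29 (SE; edgeR quasi-likelihood test, Benjamini-Hochberg adjusted p = 0.00138).

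The remaining genes changed less than 2-fold at D4. Tuba1a (ENSRNOG00000060728, Rnor_6.0 chr7:140637287-140640953), the main alpha-tubulin of growing neurons, was at 2459 and 1831 CPM in the control group and at 1329 and 1453 CPM at D4. Its log2 fold change was -0.63 ± 0.18 (SE; edgeR quasi-likelihood test, Benjamini-Hochberg adjusted p = 0.0316), so it fell past the p threshold alone. Tubb3 (ENSRNOG00000017209, Rnor_6.0 chr19:56220731-56229810), the beta-tubulin used as a neuronal marker, was at 26.3 and 21.8 CPM in the control group and at 36.4 and 45.1 CPM at D4, an increase of 0.76 ± 0.17 (SE) in log2 (edgeR quasi-likelihood test, Benjamini-Hochberg adjusted p = 0.0140). Tuba1b (ENSRNOG00000053468, Rnor_6.0 chr7:140614752-140617721), the alpha-tubulin of most dividing cells, was nearly level at 1345 and 1255 CPM in the control group and 1397 and 1456 CPM at D4 (log2 fold change 0.13, edgeR quasi-likelihood adjusted p = 0.315).

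Tubb2a (ENSRNOG00000017558, Rnor_6.0 chr17:31493107-31498651) lies on the same chromosome close to Tubb2b and encodes a protein nearly identical to it. It was at 45.9 and 36.6 CPM in the control group and 27.99 and 30.4 CPM at D4, with a log2 fold change of -0.50 ± 0.17 (SE; edgeR quasi-likelihood test, Benjamini-Hochberg adjusted p = 0.0563). The pair therefore had fold changes of opposite sign, although that of Tubb2a did not pass the threshold. Tuba1c (ENSRNOG00000021438, Rnor_6.0 chr7:140716113-140723714) was the least abundant of the genes, with 17.7 and 11.03 CPM in the control group and 13.9 and 15.6 CPM at D4. How reads shared by such near-identical genes were divided was not stated, which leaves the split between Tuba1a, Tuba1b and Tuba1c and between Tubb2a and Tubb2b uncertain.

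Stmn1 (ENSRNOG00000016810, Rnor_6.0 chr5:152680407-152686806) was at 227.5 and 179.6 CPM in the control group, 210.9 and 250.1 CPM at D4, and 189.3 and 177.6 CPM at D7. The groups overlapped at both days. The log2 fold change was 0.18 ± 0.15 (SE) at D4 and -0.15 ± 0.15 (SE) at D7, with edgeR quasi-likelihood adjusted p-values of 0.356 and 0.451. Its level thus moved less than that of any tubulin called, which does not show that it stayed the same.

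At 7 days after the injury 3 of the 10 genes were DEGs against the control group, beside 18.8% of all genes tested (9.83% upregulated and 9.02% downregulated). Tubb2b was still upregulated, 4.25-fold, Tubb4a was downregulated 6.49-fold, and Tuba1a was downregulated 2.40-fold. The libraries of the control and D7 groups did not overlap for 8 of the 10 genes and for 71.9% of all genes. The median log2 fold change of the 10 genes was -0.43, beside 0.01 over all genes tested. Both comparisons used the same control libraries.

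The log2 fold change of Tubb2b at D7 was 2.09 ± 0.14 (SE; edgeR quasi-likelihood test, Benjamini-Hochberg adjusted p = 0.000411), and that of Tubb4a was -2.70 ± 0.29 (SE; same test, adjusted p = 0.00135). Tuba1a was at 979.4 and 807.4 CPM at D7, below both control libraries and both D4 libraries. Its log2 fold change was -1.26 ± 0.18 (SE; edgeR quasi-likelihood test, Benjamini-Hochberg adjusted p = 0.00346). With library totals in place of scaling factors it was -0.97, short of the 2-fold threshold, while Tubb5 and Tubb6 then passed it. That scaling also moved the median of all genes up by 0.295 in log2 at D7 and 0.288 at D4, and the share of upregulated genes among the DEGs from 52.1% to 70.4% at D7 and from 51.2% to 69.3% at D4.

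A further 4 genes passed the p threshold at D7 without reaching 2-fold, which made 3 higher and 4 lower by p alone, where 37.5% of all genes passed (19.5% higher and 18.1% lower). Tubb5 and Tubb6 were 1.70-fold and 1.69-fold above control (edgeR quasi-likelihood adjusted p = 0.00384 and 0.0266). Without control library b, Tubb6 reached a log2 fold change of 1.07 and was called. Tuba1b, at 812.4 and 768.5 CPM, and Tubb2a, at 27.2 and 21.1 CPM, were 1.64-fold and 1.71-fold below control (edgeR quasi-likelihood adjusted p = 0.00331 and 0.0166). Tubb3 was at 33.5 and 27.4 CPM (adjusted p = 0.166 by the same edgeR test), and Tuba1c at 11.2 and 5.54 CPM (adjusted p = 0.149), so neither passed. Without D7 library a, Tuba1c reached a log2 fold change of -1.35 and was called.

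**Figure D2:**
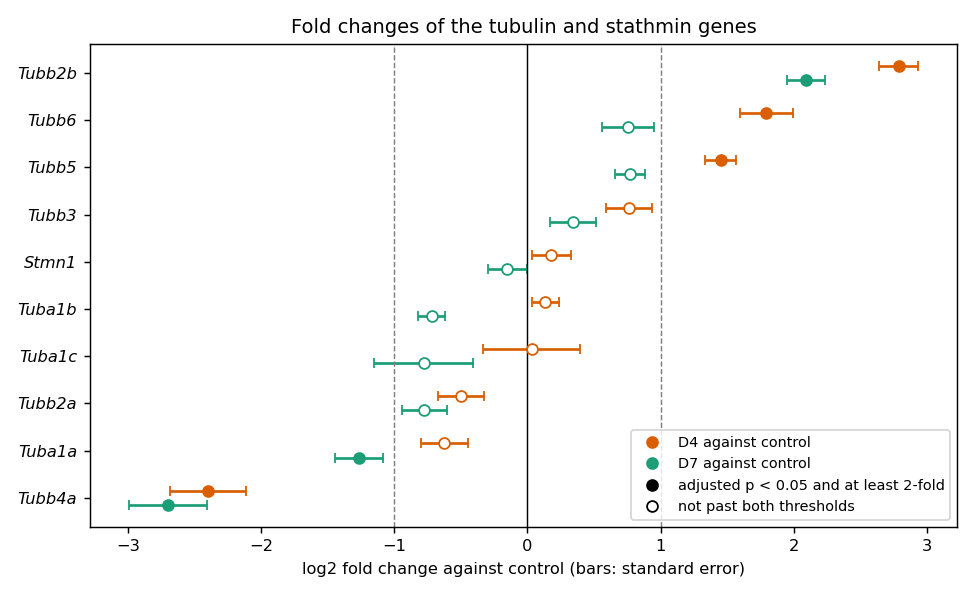
The log2 fold change of each gene against control is on the horizontal axis, with its standard error, orange for D4 and green for D7. Filled points passed both thresholds, open points did not, and the dashed lines mark 2-fold. For every gene the D7 point lies to the left of the D4 point, and Tubb2b and Tubb4a are filled at both days.

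Between D4 and D7 the fitted level of each of the 10 genes went down, by between 0.27 and 1.04 in log2, and the median difference was -0.66 beside 0.01 over all genes tested. Only Tubb6 passed both thresholds in this direct comparison, in which 2.18% of all genes did (1.68% higher and 0.494% lower at D7). Its D7 level was 2.05-fold below its D4 level (log2 difference -1.04 ± 0.19 SE, edgeR quasi-likelihood adjusted p = 0.0437). Tuba1b, Tubb2b and Tubb5 were lower at D7 with edgeR quasi-likelihood adjusted p-values of 0.0164, 0.0483 and 0.0343 and differences of 1.80-fold, 1.62-fold and 1.61-fold. By the p threshold alone 4 of the 10 genes were therefore lower and 0 higher, as were 1.79% and 2.88% of all genes, together 4.67%. The D7 libraries lay below the D4 libraries for 9 of the 10 genes, Tubb4a being the exception, while 60.6% of all genes did not overlap in either direction. The call of Tubb6 was lost without D7 library a (log2 difference -0.95, edgeR quasi-likelihood adjusted p = 0.201) or D7 library b (-1.15, adjusted p = 0.0731). Without D4 library a or b, edgeR called 0 of all genes between the days, with 2054 and 2296 at an unadjusted p below 0.05, so those fits say nothing of Tubb6 in particular.

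The makeup of the tubulin mRNA pool was read within each library, on the scale of FPKM, which divides by gene length and so allows genes to be compared. These shares and ratios are given for each library as a description, and no test was run on them. In the control group Tubb5 made up 41.0% and 42.1% of the beta-tubulin mRNA, Tubb4a 24.2% and 18.6%, and Tubb4b, a widely expressed beta-tubulin, 18.3% and 19.8%. Tubb4a was thus among the 3 leading beta-tubulins of the uninjured nerve. At D4 it held 1.86% and 2.00%, and at D7 3.14% and 2.05%.

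The 3 genes called upregulated at D4 had larger mean shares after the injury. Tubb5 held 54.0% and 53.1% at D4 and 55.3% and 55.1% at D7, and Tubb2b went from 4.596% and 4.456% in the control group to 14.5% and 15% at D4 and 15.8% and 14.2% at D7. The share of Tubb6 was 4.91% and 8.46% in the control group, 11.01% and 10.41% at D4, and 7.91% and 9.36% at D7. Tubb4b and Tubb3, whose levels rose less than 2-fold at D4, had smaller mean shares at D4 than in the control group. Tubb4b held 15.02% and 15.65% at D4 and 12.7% and 14.9% at D7, and Tubb3 went from 3.27% and 3.14% in the control group to 2.44% and 2.69% at D4. In each library Tubb2a and Tubb3 stayed under 4%. The share of Tubb2a went from 3.61% and 3.33% in the control group to 1.18% and 1.14% at D4 and 1.77% and 1.40% at D7. The injured libraries lay apart from the control libraries in the shares of Tubb4a, Tubb5, Tubb2b, Tubb2a and Tubb4b, but overlapped with them in those of Tubb6 and Tubb3.

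Ratios between single genes, also in FPKM, followed the same lines. Tubb2b stood at 1.28 and 1.34 times the level of Tubb2a in the control libraries, at 12.2 and 13.2 times at D4, and at 8.94 and 10.2 times at D7. Tubb5 stood at 1.69 and 2.26 times the level of Tubb4a in the control libraries and at 29.0 and 26.6 times at D4. At D7 the latter ratio was 17.6 and 26.9.

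Among the alpha-tubulins, Tuba1a and Tuba1b made up nearly all of the mRNA, and the ratio of Tuba1a to Tuba1b was 1.82 and 1.45 in the control libraries, 0.95 and 0.99 at D4, and 1.20 and 1.05 at D7. Tuba1a was the higher of the pair in each control and D7 library, and Tuba1b was slightly higher in each D4 library. Since the division of shared reads was not stated, this order remains uncertain. Tuba1c and Tuba4a each held less than 1% in every library. The summed alpha-tubulin mRNA was 5.28 and 4.96 times the summed beta-tubulin mRNA in the control libraries, 2.04 and 1.94 times at D4, and 2.07 and 1.86 times at D7. Because each ratio is taken within a library, it does not depend on the scaling between libraries.

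**Figure D3:**
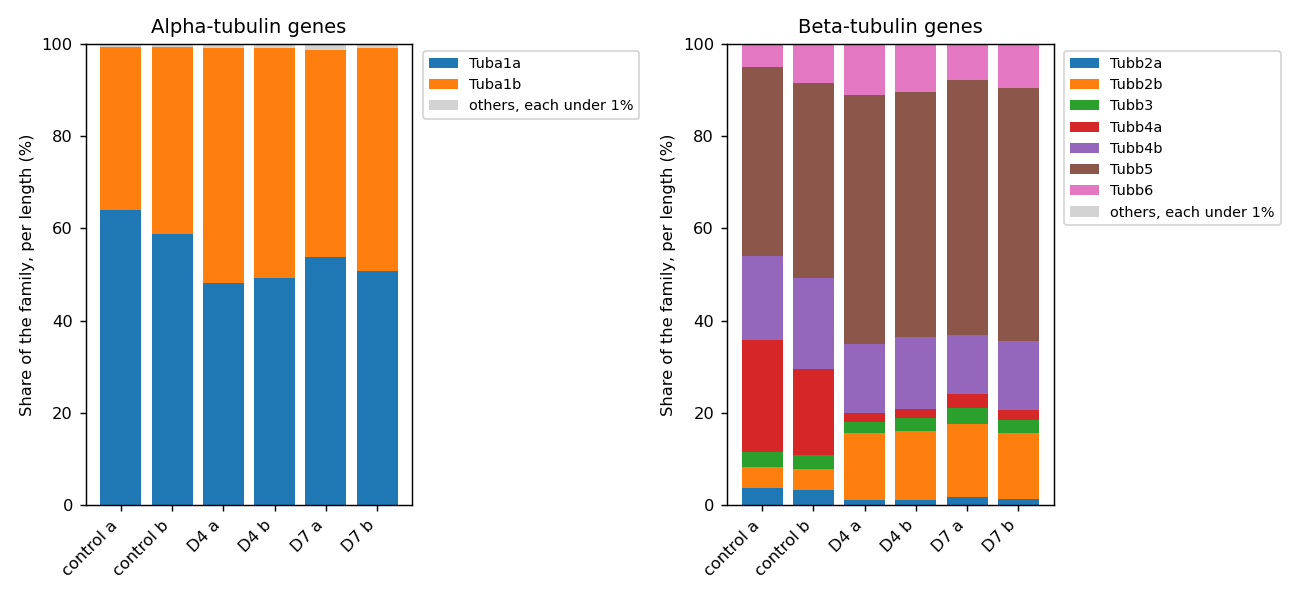
Stacked bars give the share, in percent, of each alpha-tubulin gene (left) and beta-tubulin gene (right) in its family for each of the 6 libraries, from FPKM. Genes under 1% in every library are summed in grey. Tubb4a shrinks from 24.2% and 18.6% in the control libraries to at most 3.14% after injury, while Tubb5 and Tubb2b widen.

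The order of the 10 genes by mean FPKM changed mostly in its middle. Tuba1a, Tuba1b and Tubb5 were the 3 highest in each group. In the control group they were followed by Stmn1 at 80.7 ± 12.0 FPKM and Tubb4a at 79.0 ± 21.3 FPKM (SD, n = 2), which overlapped, and then by Tubb6, Tubb2b, Tubb2a, Tubb3 and Tuba1c, of which Tubb2a and Tubb3 overlapped. At D4 Tubb2b came next after these 3, at 139.7 ± 15.4 FPKM (SD, n = 2), ahead of Stmn1 and Tubb6, which overlapped, and Tubb4a had moved to rank 8 at 18.3 ± 2.42 FPKM (SD, n = 2). At D7 Stmn1 and Tubb2b overlapped behind the leading 3, Tubb3 and Tubb4a overlapped further down, and Tuba1c had the lowest mean in all groups, overlapping with Tubb2a at D4.

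To show the starting regions of the genes that moved apart, the 250 bases before the annotated transcription start are printed for the 3 beta-tubulins that rose at D4, for Tubb2a as the neighbour of Tubb2b that did not rise, and for Tubb4a, which fell. They are from RefSeq, build GRCr8, read 5′ to 3′ in the direction of the gene, and all 10 genes had an entry. Capitals mark matches, on either strand, to the CCAAT box (CCAAT), the GC box (GGGCGG), the TATA box (TATAAA), the E-box (CACGTG) or the AP-1 motif (TGANTCA), and no matches overlapped in the 10 genes.
Tubb2b (chr17:30952836-30953085, plus strand): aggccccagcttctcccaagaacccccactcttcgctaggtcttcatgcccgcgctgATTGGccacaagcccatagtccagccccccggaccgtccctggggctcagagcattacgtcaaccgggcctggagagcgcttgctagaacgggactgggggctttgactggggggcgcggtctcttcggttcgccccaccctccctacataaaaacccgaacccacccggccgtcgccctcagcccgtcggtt
Tubb5 (chr20:2917327-2917576, plus strand): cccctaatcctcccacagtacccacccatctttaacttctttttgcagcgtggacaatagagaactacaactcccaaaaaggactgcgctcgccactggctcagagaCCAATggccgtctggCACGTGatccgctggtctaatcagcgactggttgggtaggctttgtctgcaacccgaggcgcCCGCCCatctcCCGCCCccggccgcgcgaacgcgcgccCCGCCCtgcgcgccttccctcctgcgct
Tubb6 (chr18:63213037-63213286, plus strand): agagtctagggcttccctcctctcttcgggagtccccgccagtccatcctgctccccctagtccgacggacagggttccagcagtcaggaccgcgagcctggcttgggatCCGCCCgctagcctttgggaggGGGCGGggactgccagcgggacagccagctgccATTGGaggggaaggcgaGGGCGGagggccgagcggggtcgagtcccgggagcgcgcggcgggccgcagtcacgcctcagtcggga
Tubb2a (chr17:31001936-31002185, plus strand): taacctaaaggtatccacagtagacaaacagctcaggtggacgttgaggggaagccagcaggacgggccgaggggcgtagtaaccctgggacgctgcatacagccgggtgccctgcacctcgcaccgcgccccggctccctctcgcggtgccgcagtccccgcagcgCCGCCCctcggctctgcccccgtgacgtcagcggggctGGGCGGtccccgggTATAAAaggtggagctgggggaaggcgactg
Tubb4a (chr9:2012282-2012531, minus strand): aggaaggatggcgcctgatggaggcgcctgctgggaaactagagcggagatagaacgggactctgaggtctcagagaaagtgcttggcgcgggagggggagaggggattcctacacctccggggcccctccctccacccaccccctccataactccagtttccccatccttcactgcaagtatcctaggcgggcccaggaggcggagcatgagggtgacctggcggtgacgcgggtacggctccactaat

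The CCAAT box was found in 8 of the 10 genes, beside 34.3% of the 27457 promoters of that length, and the GC box in 8 of the 10, beside 32.4%. Tubb4a held none of the 5 motifs. Tubb2a was the only gene with the TATA box (13.1% of all promoters) and had 2 GC boxes and no CCAAT box, whereas Tubb2b had a CCAAT box and no GC box. Tubb5 and Tubb6 each had 1 CCAAT box and 3 GC boxes. The E-box, found in 5.79% of all promoters, was present in Tubb5 and Stmn1, and the AP-1 motif, found in 6.36%, in none of the 10. The GC content of the 10 windows lay between 56.8% and 80.4%, above the median of 52.0% over all promoters. These matches describe the sequence and say nothing of a factor bound there.

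Markers of cell types and of dividing cells also differed between the groups. All 9 proliferation markers measured, such as Mki67, were upregulated at both days, and their summed level rose from between 48.0 and 91.0 CPM in the control group to between 1096 and 1255 CPM at D4 and between 712.7 and 760.3 CPM at D7. Their order of groups was that of Tubb2b, Tubb5, Tubb6 and also Tubb3, and the macrophage and repair Schwann cell sums that follow had it too. Of the 9 proliferation markers, 0 were called between D4 and D7. Macrophage markers, of which 8 of 8 were upregulated at D4 and 6 of 8 at D7, summed to between 422.7 and 436.7 CPM in the control group, between 1737 and 1748 CPM at D4 and between 1253 and 1412 CPM at D7. Markers of the repair Schwann cell, the state that Schwann cells take after they lose their axon, summed to between 123.4 and 126.4 CPM, between 1978 and 2106 CPM and between 1140 and 1229 CPM in the control, D4 and D7 groups, with 3 of 6 genes upregulated at each day. Most of that sum was Ngfr, at 1864 and 1979 CPM at D4, and Ncam1 of the same list was downregulated at D4 (log2 fold change -1.23, edgeR quasi-likelihood adjusted p = 0.00446).

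Tubb4a was downregulated at D4, and so were 5 of 8 myelinating Schwann cell markers. Between D4 and D7, 4 of these 8 were upregulated, beside 1.68% of all genes tested. The difference of Tubb4a between the days was not resolved (log2 difference -0.30 ± 0.28 SE, edgeR quasi-likelihood adjusted p = 0.558). Whether Tubb4a and these markers changed in the same cells was not tested. Neuronal and axonal markers summed to between 68.0 and 70.4 CPM in the control group, between 17.6 and 22.2 CPM at D4 and between 233.6 and 347 CPM at D7. Of the 7 tested, 3 were downregulated at D4, and 2 were upregulated and 4 downregulated at D7. The sum at D7 came mostly from the 2 that rose, the neurofilament subunits Nefl (16.4-fold) and Nefm (30.6-fold), while Nefh, Prph, Snap25 and Sncg were downregulated, with log2 fold changes of -2.75, -2.01, -3.63 and -1.24. Tubb3, the neuronal beta-tubulin, was highest at D4. The part of any cell type in the tubulin changes was not tested.

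Adipocyte markers differed between the rats of a group, at 517.9 and 252.2 CPM at D4 and 52.3 and 618 CPM at D7, against 1424 and 1258 CPM in the control group, with 0 of 5 called by edgeR or DESeq2 and 0 with an unadjusted p below 0.05 at either day. In an edgeR fit of the control and D4 libraries alone, 4 of the 5 were downregulated at D4, as they were without either D7 library. Without D7 library b, 5 were downregulated at D7, and without D7 library a 1 was. Muscle markers summed to at most 81.4 CPM in any library, with 1 of 5 downregulated at each day. Endothelial markers were downregulated for 2 of 4 genes at D4 and 4 of 4 at D7, and fibroblast markers for 0 and 1 of 4 genes tested, Col1a2 being listed at 0 in every library. T cell markers rose in sum from at most 2.23 CPM in the control group to between 15.2 and 18.1 CPM at D7, with 3 of 4 upregulated.

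None of the 21 tested genes for tubulin folding, which include the CCT chaperonin, prefoldin and the tubulin cofactors, was a DEG at either day, and their log2 fold changes lay between -0.67 and 0.67 at D4 and between -0.73 and 0.56 at D7. Without the fold threshold, 3 were higher and 1 was lower at D4 and 5 were higher and 1 lower at D7 by the edgeR quasi-likelihood test. An unadjusted p below 0.05 was found for 8 of them at D4 and 7 at D7, and DESeq2 called 0. Nor was any of the 11 genes of the gamma-tubulin complex and minus ends, which seed new microtubules, a DEG, with 3 higher and 1 lower at D4 and 1 higher at D7 without the fold threshold. Of these 11, 4 at D4 and 2 at D7 had an unadjusted p below 0.05 by edgeR, and DESeq2 called 0. Over all 15195 genes tested, 21.9% were DEGs at D4 and 18.8% at D7, and 44.2% and 37.5% passed without the fold threshold. An unadjusted p below 0.05 by edgeR was found for 8088 of all genes at D4 and 7361 at D7.

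Of the 7 tested genes among the other tubulins, 2 were upregulated at D4, Tubg2 and Tube1, and 1 at D7, Tube1. Of all genes tested, 11.2% were upregulated at D4 and 9.83% at D7. Tube1, the centriolar epsilon-tubulin, was at 6.39 and 8.38 CPM in the control group, 17.4 and 14.7 CPM at D4 and 16.5 and 15.7 CPM at D7. Tubg2, a gamma-tubulin, had only 0 and 3 counts in the control group and 23 and 18 counts at D4. The family's remaining beta-tubulin of high level, Tubb4b, was at 135.5 and 126.7 CPM in the control group, 206.8 and 242.4 CPM at D4 and 113.3 and 130.4 CPM at D7, an increase of 1.71-fold at D4 (edgeR quasi-likelihood adjusted p = 0.00373).

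The other stathmins were scarce in the nerve. Stmn3 was downregulated from 5.72 and 4.04 CPM in the control group to 0.53 and 1.15 CPM at D4 and 0.85 and 0.99 CPM at D7. Stmn4 was upregulated at D4, from 7 and 12 counts in the control group to 59 and 44 counts, and had 24 and 23 counts at D7 (log2 fold change 1.07, edgeR quasi-likelihood adjusted p = 0.129). Stmn2, known as a gene of growing axons, was at 9.37 and 7.24 CPM in the control group and 0.74 and 3.92 CPM at D4 and was called at neither day (edgeR quasi-likelihood adjusted p = 0.0674 and 0.0555). By edgeR 2 of these 3 stathmins were called at D4 and 1 at D7, beside 21.9% and 18.8% of all genes. DESeq2 called all 3 at D4, and 3384 of all 15195 genes.

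Of 21 tested tubulin-modifying enzymes, 1 was upregulated and 5 were downregulated at D4, and 1 and 4 at D7, shares not far from the 21.9% and 18.8% of all genes. With DESeq2, without the low-count filter or with library totals, 3 instead of 5 were downregulated at D4. Vash2, which with its cofactor removes the last tyrosine of alpha-tubulin, went from 3.09 and 3.80 CPM in the control group to 8.17 and 7.83 CPM at D4 and 10.5 and 9.995 CPM at D7. The largest fall at D4 was that of Ttll9, of the family that adds glutamate or glycine chains to tubulin tails, from 7.21 and 7.36 CPM to 0.78 and 1.48 CPM. At D7 it was that of Agbl1, of the family that trims such chains, which had 21 and 8 counts in the control group and 1 and 2 counts at D7.

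Among 15 proteins that bind along the microtubule, 2 were upregulated at both days, Map2 and Dclk1, and 2 were downregulated at D4 and 1 at D7, again beside 21.9% and 18.8% of all genes. With library totals, 4 were upregulated and 1 was downregulated at D4. Map2, best known as a stabilizer of microtubules in dendrites, was at 3.40 and 4.64 CPM in the control group, 15.7 and 22.6 CPM at D4 and 17.1 and 18.8 CPM at D7. Map7d3, of a family that recruits kinesin-1, went down from 10.5 and 11.4 CPM to 4.35 and 3.47 CPM at D4 and 1.69 and 4.70 CPM at D7, the largest fall of the list at both days.

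The plus-end proteins and depolymerases held 2 upregulated and 2 downregulated genes of 13 at D4, and 2 and 1 at D7, beside the same 21.9% and 18.8% of all genes. The largest rise was that of Kif18a, a kinesin that works on the chromosomes' microtubules in mitosis, at 0.98 and 1.45 CPM in the control group, 15.8 and 18.2 CPM at D4 and 14.0 and 15.1 CPM at D7. Slain1, a partner of plus-end growth, was at 9.74 and 6.75 CPM in the control group, 1.52 and 0.997 CPM at D4 and 6.67 and 5.99 CPM at D7. It was the only gene of these lists called between the days, 5.03-fold higher at D7 than at D4 (edgeR quasi-likelihood adjusted p = 0.0235). Like every other call between the days, it was not made without D4 library a or b. Mapre3, of the EB family that tracks growing ends, was downregulated at both days, at 108.6 and 100.9 CPM in the control group, 21.0 and 22.8 CPM at D4 and 46.5 and 40.4 CPM at D7. Of 5 tested severing enzymes, Fignl1 alone was called, upregulated at both days, beside 11.2% and 9.83% of all genes. It was at 1.29 and 0.96 CPM in the control group, 7.63 and 9.86 CPM at D4 and 5.26 and 7.67 CPM at D7.

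**Figure D4:**
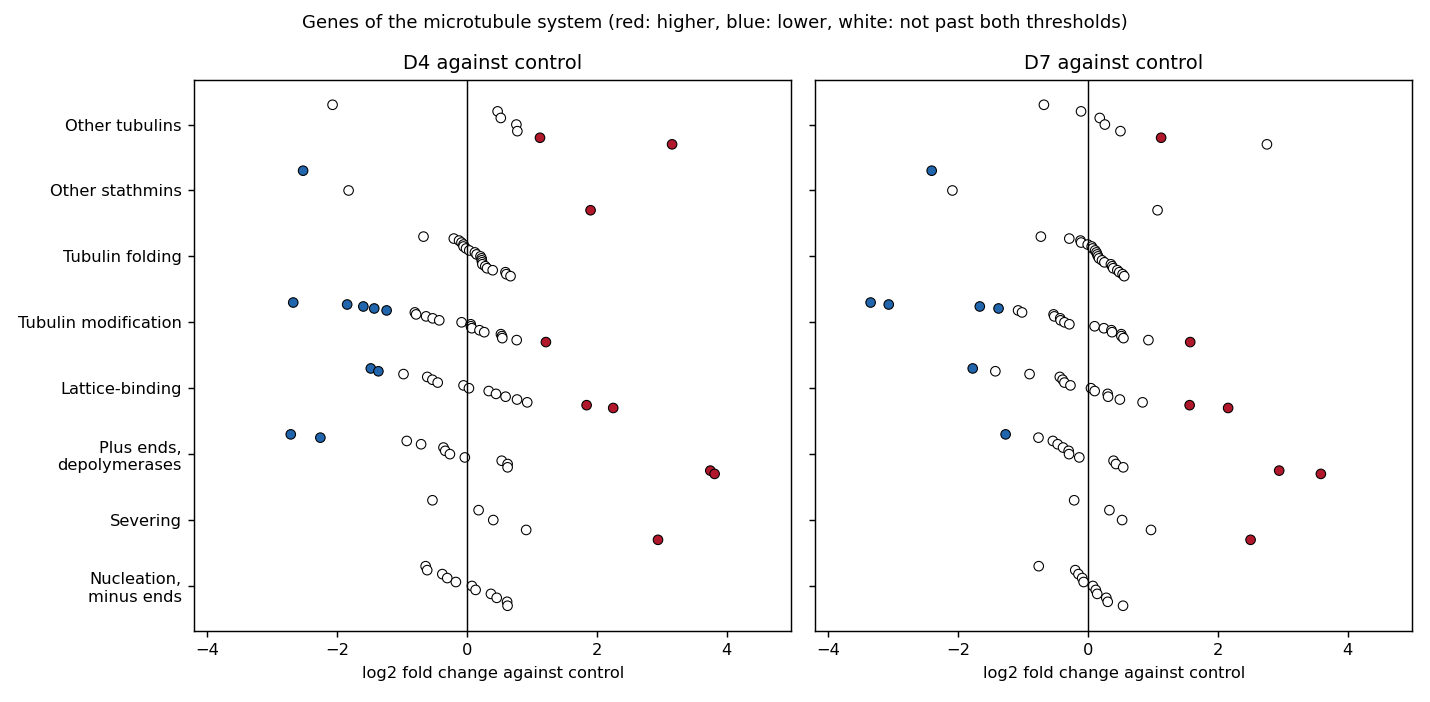
Each point is a tested gene of a list of the microtubule system, with its log2 fold change against control on the horizontal axis, D4 on the left and D7 on the right, and genes spread vertically in order of value. Red and blue points passed both thresholds and white points did not. The folding and nucleation lists hold only white points, and the modification list has 5 blue points and 1 red point at D4.

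For each gene the tested genes with the most similar pattern were sought among 9879 genes with a mean of at least 10 CPM, by the root mean square difference in log2 CPM over the 6 libraries after centring. The closest to Tubb2b was Sh3bp2 (0.104), to Tubb5 Fanci (0.064), to Tubb6 Zfp367 (0.072) and to Tubb4a Cyb5r2 (0.187). The closest to Tuba1a was Slc2a1 (0.116), to Tuba1b Gas2l1 (0.071) and to Stmn1 Pomgnt1 (0.055). No other member of the set of 10 was among the 3 closest genes of any of them.

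At the loci of the 10 genes, 8 annotated lncRNA transcripts overlapped a gene's span by at least 1 base. Of these, 5 had at most 4 counts in every library and were not tested. None of the other 3 was called by edgeR or DESeq2. By edgeR 10.1% of 14077 lncRNAs were called at D4, 5.79% at D7 and 0.249% between the days, and 1 of the 3 had an unadjusted p below 0.05. This was NONRATT022723.2 (chr5:152682812-152684129, Rnor_6.0), within the span of Stmn1, with 41 and 30 counts in the control group, 51 and 160 at D4 and 59 and 92 at D7. Its log2 fold change at D4 was 1.38 ± 0.55 (SE; edgeR quasi-likelihood adjusted p = 0.174), and D4 library b stood apart from the rest. Since it was not stated whether strand was used in counting, reads of Stmn1 and of this transcript cannot be told apart.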

How the data were processed

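Total RNA of 6 sciatic nerves, depleted of ribosomal RNA, had been sequenced in paired ends. Per the labels and the methods, the authors mapped reads with HISAT2 2.0.4 to Rnor_6.0 and assembled and counted them with StringTie 1.3.0. The deposited mRNA and lncRNA counts are fragments per gene or transcript, not normalized. The deposited FPKM values divide those counts by length and library total, and were used only within libraries.

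Genes with few counts were left out by filterByExpr. The quasi-likelihood model of edgeR 4.0.16 (R 4.3.3) was fitted with TMM factors in 1 fit of 6 libraries, and p-values were adjusted over all genes tested by the Benjamini-Hochberg method. The lncRNAs were fitted separately. CPM are TMM-scaled. Each standard error is the size of the log2 fold change over the square root of its F statistic. With 2 rats per group no library could be judged an outlier, and counting depth was between 18727255 and 25350886 mRNA counts. Family shares are percent of summed FPKM.

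The genes and lists were chosen with earlier results of these data known, and 1 myelin marker is not reported here. All 10 genes are named, and of each pathway list the called genes with the largest rise and fall at each day and any called between the days. Tube1, Dclk1, Tubb4b and Stmn2 were named after their values were seen. Alternatives were RLE factors, no scaling factors, DESeq2 1.42.0, 2 other count filters, fits of the compared groups, a replicate block, no fold threshold, leaving out each library, and shares without length correction. The procedure was also run on simulated counts, with changes well above 2-fold in genes above the median level. Its recovery of smaller changes was not examined. Figures used Python 3.11.15 and matplotlib 3.10.9.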

Additional observations from a re-analysis of the deposited data

Results flagged for a closer look

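The level of Tubb6 differed between the injured groups in the direct test of D7 against D4, with a log2 difference of -1.04 (edgeR quasi-likelihood adjusted p = 0.0437), both D7 libraries lying below both D4 libraries. The difference between its D4 and D7 changes against the shared control group is this same value. The cause was not tested.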

How the results depend on the processing

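With 2 rats per group, fold changes near the threshold depend on single libraries. The 4 genes called at D4 were kept under every alternative run, with Tubb3 added by library totals. Without the fold threshold, 2 of the 10 genes were called lower at D4, 3 higher and 4 lower at D7, and 4 lower between the days. With library totals in place of scaling factors, 3 were called higher and 1 lower at D7, and the log2 fold change of Stmn1 at D7 was 0.15. Leaving out 1 library gave between 1 and 2 genes called higher and 2 and 3 lower at D7, and between 0 and 1 lower between the days, where the fits without a D4 library called 0 of all genes by edgeR (2054 and 2296 at an unadjusted p below 0.05) and so do not bear on the 10. It turned the sign of Tuba1c at D4 (-0.27 without control library b and -0.05 without D4 library b, up to 0.42 without control library a) and of Stmn1 at D7 (0.03 without control library a, down to -0.31 without control library b). Of the alternative fold changes of the 10 genes, 397 kept direction and call, 14 gained the call, 5 lost it and 4 changed sign. Most of the gains came from dropping the fold threshold, which leaves the fold change itself unaltered. The causes of the other changes were not tested. Without length correction the share of Tubb2b was 5.4%, 16.2% and 16.3% in the control, D4 and D7 groups, that of Tubb5 53.4%, 63.5% and 64.5%, and that of Tubb4a at D4 1.501%. Over the alternatives that kept the fold threshold, the tubulin-modifying enzymes called lower numbered between 2 and 5 at D4 and between 1 and 4 at D7, the lattice-binding proteins called lower between 0 and 2 and between 0 and 3, those called higher between 2 and 4 and between 2 and 3, and the other tubulins called higher between 0 and 4 and between 0 and 2. The folding and nucleation lists stayed at 0 calls.

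The letters a and b name different rats, which the study picked at random from each group. Deviations of same-lettered libraries correlated at 0.01 (D4 and control), 0.20 (D7 and control) and -0.13 (D7 and D4). Such values from 2 libraries per group cannot show whether same-lettered libraries shared a batch. With the letter as a replicate block the same 10-gene calls were made, 3 higher and 1 lower at D4, 1 higher and 2 lower at D7 and 1 lower between the days, and 3281, 2827 and 248 of all genes were called. With the D4 letters exchanged, chosen after seeing the data, 334 were called between the days.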
